A study of Mus musculus with 52 samples.

Results

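The genes described here are 39 genes that a dividing cell uses to copy its DNA and to separate its chromosomes. They comprise 8 licensing genes, 5 genes of DNA synthesis and nucleotide supply, 4 genes of G1 and S phase control, 8 mitotic cyclins and kinases with their regulators, 5 genes of the spindle checkpoint and mitotic exit, and 9 genes of the spindle, chromosomes and cytokinesis. A gene was included when a probe set on the array carried its symbol and no other. By that rule 38 of the 39 genes had 74 probe sets, of 12393 genes with 20380 probe sets in all, and Ccnb1, cyclin B1, had no probe set under that symbol.

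The arrays measured liver RNA of young adult male B6C3F1 mice, a cross of C57BL/6 and C3H mice, after 1 intraperitoneal dose of a chemical or its vehicle. Of the genotoxic hepatocarcinogens, ENU is ethylnitrosourea and was given at 150 mg/kg, DMN is dimethylnitrosamine at 5 mg/kg, and DPN is dipropylnitrosamine at 250 mg/kg. AAT, or o-aminoazotoluene, was given at 300 mg/kg, the polycyclic hydrocarbon DMBA, which is 7,12-dimethylbenz[a]anthracene, at 20 mg/kg, and DBP, which is dibenzo[a,l]pyrene, at 6 mg/kg. Doses of the non-genotoxic pair were 1000 mg/kg for EtOH (ethanol) and 30 mg/kg for PB (phenobarbital). Livers were taken at 4 h, 20 h, 14 days and 28 days, and each of the 52 arrays held RNA pooled from 5 mice, 1 array for each chemical and time. ENU, DMN and DPN each had a saline control array of their own at each time, EtOH and PB shared a saline control, and AAT, DMBA and DBP shared an olive oil control. Because mice were pooled, the spread between mice was not measured, and every p-value below refers to the spread between pools or between chemicals. RNA of whole liver cannot tell fewer cells of a type from less RNA per cell.

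Most hepatocytes of an adult liver rest outside the cell cycle. When a cell enters it, cyclin D and cyclin E kinases release E2F factors, which switch on genes for licensing origins, making deoxynucleotides and copying DNA. FoxM1 and the proteins that act through CCAAT and cell cycle homology elements later raise the genes for mitosis. Damaged DNA brings in p53 and its target Cdkn1a, an inhibitor of cyclin kinases, and some genes of nucleotide supply and repair synthesis also respond to damage.

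Windows before a RefSeq start are shown for the 4 genes on which the results below turn most. Each line gives the 250 bases before the start in RefSeq, build GRCm38.p6, read 5′ to 3′ along the gene, and capitals mark CCAAT or TTTGAA, on either strand.
Rrm2, chr12:24708004-24708253, plus strand: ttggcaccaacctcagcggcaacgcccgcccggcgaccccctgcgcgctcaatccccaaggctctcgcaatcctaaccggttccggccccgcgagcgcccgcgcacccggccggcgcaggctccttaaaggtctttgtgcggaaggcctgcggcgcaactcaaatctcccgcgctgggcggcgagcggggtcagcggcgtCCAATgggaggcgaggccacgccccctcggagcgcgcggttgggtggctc
Pcna, chr2:132253181-132253430, minus strand: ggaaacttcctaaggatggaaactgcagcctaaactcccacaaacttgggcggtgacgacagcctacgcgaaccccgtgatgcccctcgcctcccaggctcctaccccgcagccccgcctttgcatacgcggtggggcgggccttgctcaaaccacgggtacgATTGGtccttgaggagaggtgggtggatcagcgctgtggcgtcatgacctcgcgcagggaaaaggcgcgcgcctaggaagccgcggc
Cdk1, chr10:69352913-69353162, minus strand: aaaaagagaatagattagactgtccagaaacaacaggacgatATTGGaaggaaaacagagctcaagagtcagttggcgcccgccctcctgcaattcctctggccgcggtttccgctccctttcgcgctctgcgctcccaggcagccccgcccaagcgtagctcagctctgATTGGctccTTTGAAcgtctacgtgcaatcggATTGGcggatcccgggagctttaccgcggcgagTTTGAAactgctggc
E2f1, chr2:154569427-154569676, minus strand: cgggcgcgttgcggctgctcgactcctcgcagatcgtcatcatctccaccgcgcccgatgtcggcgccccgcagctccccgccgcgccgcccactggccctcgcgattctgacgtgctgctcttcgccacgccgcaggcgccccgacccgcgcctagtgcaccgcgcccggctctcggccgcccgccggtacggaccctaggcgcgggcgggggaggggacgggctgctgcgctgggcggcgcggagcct
The Rrm2 window held 1 CCAAT box, 50 bases before the start, and the Pcna window held 1, at 87 bases. In the Cdk1 window there were 3 CCAAT boxes, at 208, 80 and 48 bases, and 2 TTTGAA elements, at 71 and 15 bases. E2f1 had none of these letters in its 1 window. That window may lie inside the gene and not before its main start, so nothing follows for the E2f1 promoter. RefSeq windows matched 31 of the 39 genes, with 33 windows in all. CCAAT, or ATTGG on the other strand, stood in 75.8% of the 33 windows and in 33.8% of 32851 windows of all genes. For TTTGAA or TTCAAA, the core of the cell cycle homology element, the shares were 27.3% and 16%. GCGGGAA or TTCCCGC, 1 form of an E2F site, stood in 12.1% and 3.82%. No searched motif contains another of them. A match is a run of letters and no proof of a bound site.

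A value is called a log2 signal here, the base 2 logarithm of an array's intensity after the arrays were scaled to 1 median. Signals under 32.5, the lowest 30% of all scaled values, were set to that floor, which is 5.02 on the log2 scale, and a value at the floor has no order among others at the floor. A probe set was kept when it lay above the floor in at least 4 arrays, and the brightest kept probe set stood for its gene unless another is named. A log2 ratio is the log2 signal of a treated array less that of its own vehicle control of the same time, and a ratio of 1 is a 2-fold rise.

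The replication and mitosis genes lay close to background in this tissue. Of their 74 probe sets, 52 were kept, 14 never rose above the floor and 16 stayed above it in all 52 arrays. Of their 3848 values, 50.9% were at the floor, against 29% over all named probe sets. In all, 29 of the 38 genes were kept, a share of 76.3% against 86.8% for all named genes. A smaller share, 11 of 38 or 28.9%, lay above the floor in every array with the probe set that stood for the gene, against 59.3% of all named genes.

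The genes that were not kept included licensing genes, a G1 and S phase gene and mitosis genes. Cdc6, which loads the MCM helicase, the cyclin Ccnb2, the checkpoint kinases Bub1 and Bub1b and the mitotic kinesin Kif20a did not rise above the floor in any array. Ccne2, Mcm6 and Ube2c did so in 3 arrays each, and Birc5, which encodes survivin, in 1. Among the kept genes, Cdk1 was above the floor in 5 arrays, Mki67 in 12, Cenpa in 14, Top2a in 21, Tacc3 in 23 and Tyms in 24. Mcm4, Mcm7, Gmnn, Pcna, Rrm1, Rrm2, Ccnd1, Ccna2, Aurka, Cdc20 and Hmmr were above it in all 52. A ratio between values at or near the floor says little, so the text gives levels first.

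**Figure D1:**
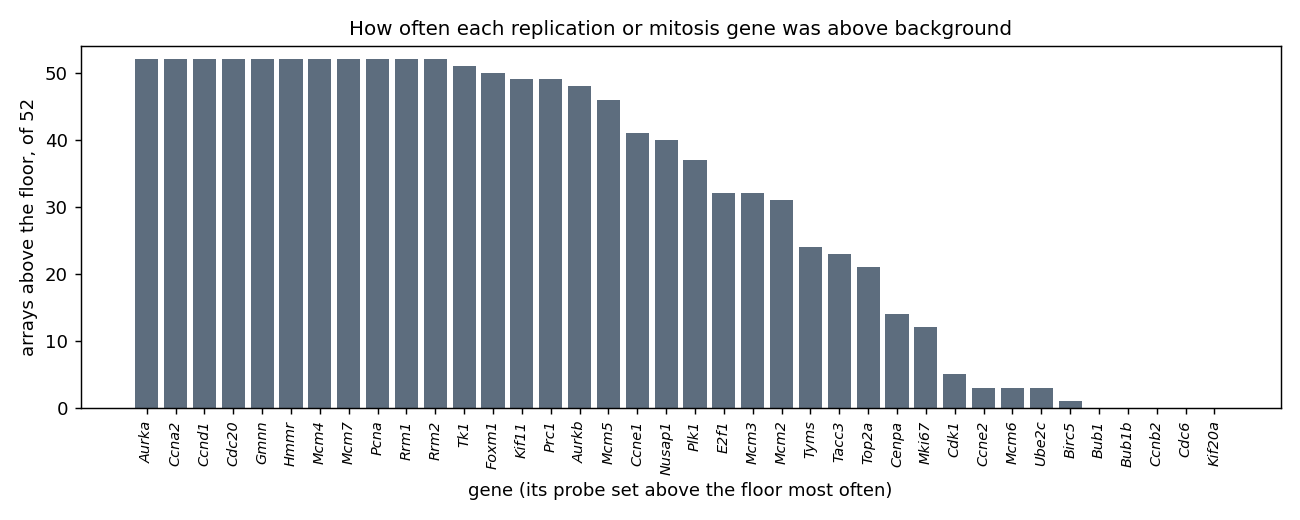
Bars give, for each of 38 genes, the number of the 52 arrays in which its most often detected probe set lay above the floor. In all, 11 genes reached 52, Cdk1 reached 5, and Bub1, Bub1b, Ccnb2, Cdc6 and Kif20a had 0.

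The probe sets of 1 gene often told different stories. Over the 32 log2 ratios, 23 pairs of probe sets in 14 genes had Pearson correlations between -0.33 and 0.52, with a median of 0.15. The points share controls and the correlation is a description. Other probe sets of a gene are given below for the values on which the results turn most.

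Across the 8 chemicals and 4 times the genes moved little and in both directions. Of 928 ratios, 29 genes in 32 chemical and time pairs, 33 were 2-fold or more, 16 up and 17 down, and 17 genes never reached 2-fold. At 4 h there were 5 such ratios of 232, or 2.16%, against 2.49% over all genes. At 20 h 11 of 232, or 4.74%, stood beside 3.72%, at 14 days 10, or 4.31%, beside 3.27%, and at 28 days 7, or 3.02%, beside 2.16%. Pairs of saline controls of the same time differed 2-fold or more in 5.75%, 2.30%, 4.60% and 4.60% of the comparisons of these genes, in order of time. The shares under treatment were thus no larger at 3 of 4 times than those between controls, and at 20 h the share was larger. The treated ratios of 20 h included 3 of EtOH and PB to the saline array described below. That array also entered the saline pairs of 20 h, where the largest difference was 2.22, for Foxm1. Its part in either share was not tested.

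**Figure D2:**
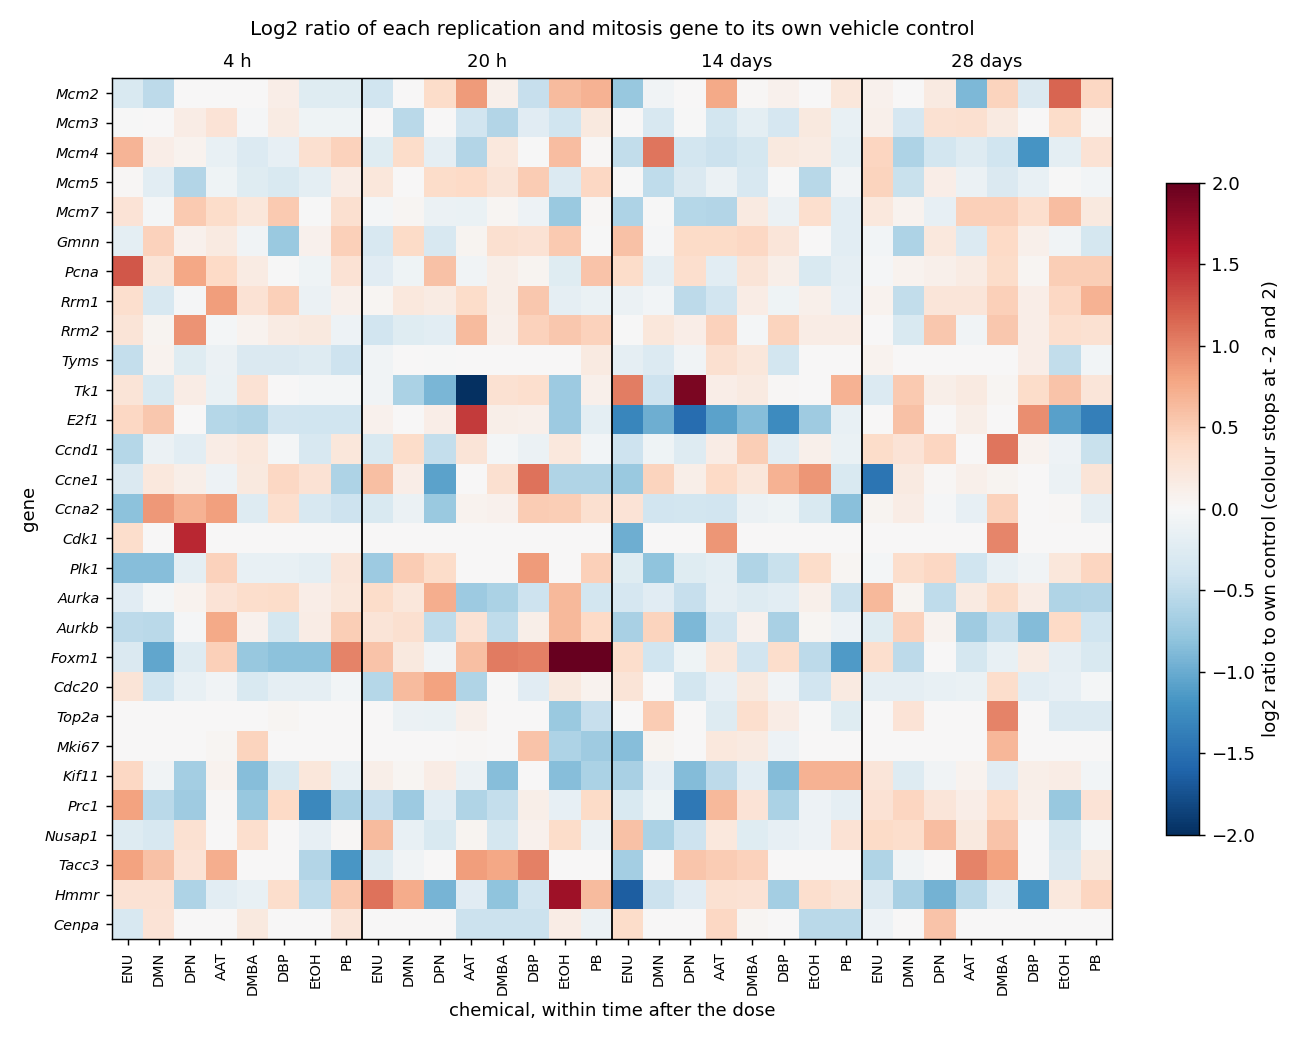
Each cell is the log2 ratio of 1 gene (rows) in 1 treated array to its own vehicle control, for 8 chemicals within each of 4 times (columns); red is higher, blue lower, and white 0. Most cells are pale, E2f1 is blue across the genotoxic chemicals at 14 days, and the DMBA column at 28 days is mostly red.

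Cells expected in the tissue were there. Alb, Ttr, Apoa1, Apoa2, Tat, Cps1 and Fgb, all made by hepatocytes, had log2 signals between 11.55 and 14.43 in every array. Kupffer cell, endothelial, erythroid and stellate cell markers were also detected, among the last Des, Reln, Rgs5, Col3a1 and Acta2 in all 52 arrays and Lrat in 4, while the cholangiocyte markers Krt19, Krt7 and Sox9 were at the floor in most arrays.

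Some arrays stood apart before any result. EtOH at 20 h had a log2 ratio of the 3′ to the 5′ probe set of 3.13 for Gapdh and 3.79 for actin, against -0.51 to 0.34 and 0.15 to 1.28 in the other 51 arrays. The array labelled saline at 20 h, of the EtOH and PB set, had a log2 signal of 11.48 for Cyp2b10, the cytochrome that phenobarbital induces, and the array labelled PB at 20 h had 8.25, while at 4 h the saline and PB arrays had 8.28 and 11.98. Ratios of EtOH and PB at 20 h rest on that control. Array medians before scaling ran from 17.9, in PB at 28 days, to 205, in the DMN control of 14 days.

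The first question was whether the genotoxic chemicals as a class shifted these genes at a given time. Each class fit by limma compared the 6 genotoxic arrays with the 5 controls of that time within control sets, over 18349 probe sets, with Benjamini-Hochberg adjustment. No gene of the 29 passed at any of the 4 times, and none of all probe sets did either, so the background was 0%. At an unadjusted p under 0.05 there were 3, 0, 5 and 2 of the 29 genes at 4 h, 20 h, 14 days and 28 days, and 1785, 847, 2164 and 1116 of all probe sets. A second description counted probe sets whose 6 genotoxic and 5 control arrays did not overlap. At 4 h, 20 h and 28 days none of the 29 genes did so, where the background was 0.452%, 0.283% and 0.305%, and at 14 days 1 gene did, E2f1, where it was 0.294%.

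Licensing genes, which load and hold the helicase that opens DNA at origins, gave no call for the class. Mcm7, a helicase subunit, was 0.29 higher on the log2 scale at 4 h (SE 0.11, limma adjusted p = 0.48), with own-control ratios from -0.04 in DMN to 0.52 in DBP and DPN. In DPN at 4 h all 4 Mcm7 probe sets were above the DPN control, by 0.52, 1.00, 0.49 and 0.93. Mcm2, Mcm3 and Mcm5, subunits too, were dim at 4 h, with log2 signals of at most 5.55, 5.32 and 5.85 in the 13 arrays. Mcm4 ranged from a ratio of -1.17 in DBP at 28 days to 1.07 in DMN at 14 days. Gmnn, geminin, which blocks a second loading of the helicase, was 0.33 higher for the class at 14 days (SE 0.12, adjusted p = 0.40). None of these differences passed the adjusted test.

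At 4 h Pcna and Rrm2 had the largest ratios of the DNA synthesis and nucleotide group. Pcna encodes the sliding clamp of DNA polymerases, which also serves repair synthesis. Its log2 signal at 4 h was 9.17 in ENU, 9.41 in DPN, 9.04 in AAT, 8.79 in DMBA and 8.63 in DBP, with DMN between AAT and DMBA. The controls had 7.92 for ENU, 8.63 for DPN, 8.75 for DMN, 8.79 for saline and 8.63 for olive oil, and EtOH and PB had 8.71 and 9.08. The 4 highest genotoxic arrays lay above all 5 controls, but DMBA and DBP lay among them and PB above them. The class difference was 0.57 (SE 0.19, adjusted p = 0.46), and leaving out 1 chemical at a time moved it between 0.37 and 0.66.

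The ENU ratio of Pcna, 1.24 or 2.37-fold, leaned on a low ENU control. Against the mean of all 4 saline controls it was 0.64 (SE 0.28, adjusted p = 0.50), and that of DPN was 0.89 (SE 0.28, adjusted p = 0.21). By 20 h DPN was still the highest of the 13 arrays, at 9.37, and the other arrays lay between 8.16 and 8.97. At 14 and 28 days Pcna stayed within 7.96 to 9.02 in all 26 arrays.

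Rrm2 encodes the small subunit of ribonucleotide reductase, which makes deoxynucleotides. Its 3 probe sets were all kept, and at 4 h DPN was the highest of the 13 arrays and ENU among the highest in each. On the brightest, DPN had a log2 signal of 7.90 and ENU 7.33, against 6.65 to 7.08 in the controls and 6.71 to 7.07 in the other genotoxic arrays. On the middle one, DPN had 7.26, EtOH 6.61 and ENU 6.52, against 5.23 to 5.98 in the controls. On the dimmest, DPN had 7.17 and ENU 6.51, against 5.08 to 5.75 in the controls, and EtOH and PB had 6.14 and 5.68.

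The dimmest Rrm2 probe set passed the test in both. DPN exceeded the mean of the saline controls by 1.82 (SE 0.20, limma adjusted p = 0.000158) and ENU by 1.17 (SE 0.20, adjusted p = 0.013). For DPN the brightest and middle probe sets gave 0.97 (SE 0.30, adjusted p = 0.19) and 1.62 (SE 0.46, adjusted p = 0.14), and for ENU 0.40 and 0.87 with adjusted p of 0.75 and 0.60. The probe set that passed was dim in the controls, and its ENU call was lost without the DPN controls as saline replicates (adjusted p = 0.10). Both calls were lost with values as deposited, without scaling (adjusted p = 1 for each), with the floor at the 20th percentile (0.058 for DPN and 0.37 for ENU) and with no floor (0.14 and 0.53). DMN, a nitrosamine like DPN but at 5 mg/kg against 250, had ratios of 0.06, -0.37 and -0.17 on the 3 probe sets, and since the doses differ no comparison is made. By 20 h the DPN ratio of the brightest was -0.22 and its level 6.93 lay inside the controls, 5.99 to 7.15.

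**Figure D3:**
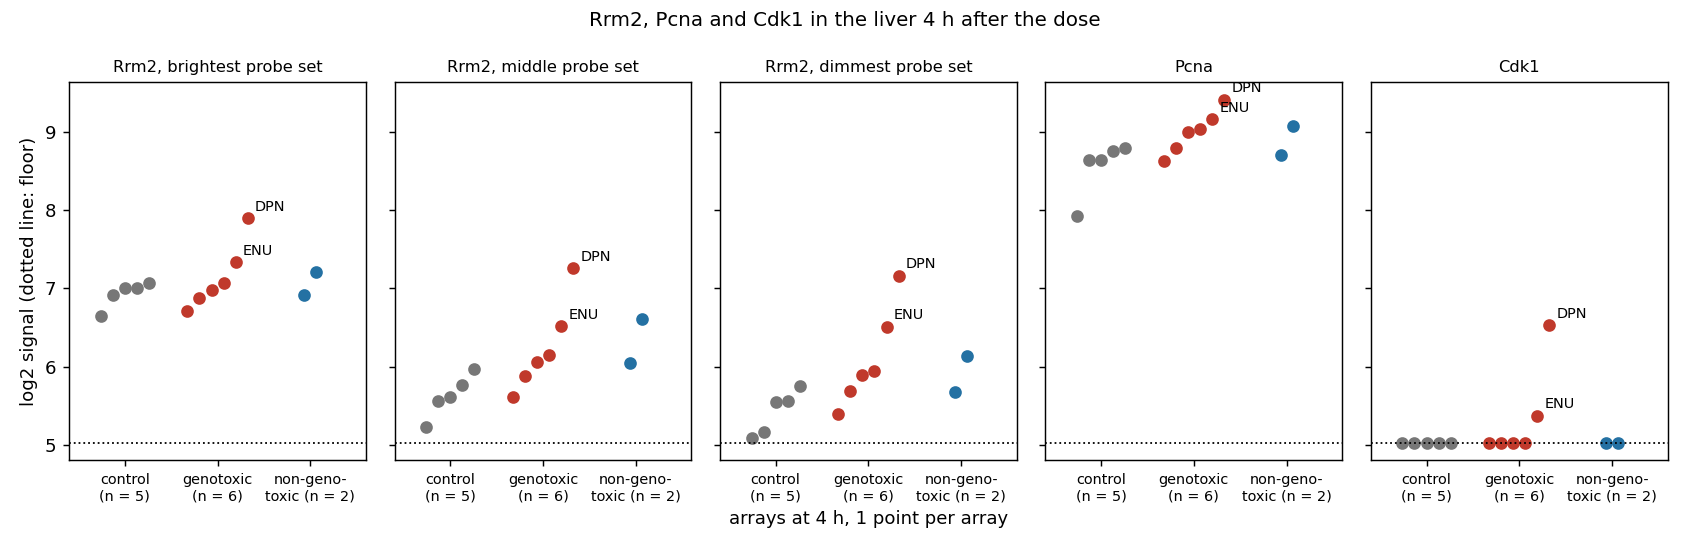
Points are the log2 signals of single arrays 4 h after the dose for 3 probe sets of Rrm2, for Pcna and for Cdk1, in 5 controls, 6 genotoxic and 2 non-genotoxic arrays; the dotted line is the floor at 5.02. DPN is the highest array in each panel, at 7.90, 7.26, 7.17, 9.41 and 6.53.

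Rrm1, the large subunit, did not follow Rrm2: its brighter probe set had a ratio of -0.02 in DPN and 0.34 in ENU at 4 h. AAT had the largest Rrm1 ratio, 0.84, and 0.63 on its other probe set. Tyms, thymidylate synthase, was above the floor in 24 arrays and its ratios lay between -0.50 and 0.31.

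Tk1, the thymidine kinase of S phase, had the widest swings of the group. At 20 h AAT was at the floor, where the olive oil control had 7.11, DMBA 7.42 and DBP 7.45, a fall of at least 4.24-fold. At 14 days DPN had 7.63 and ENU 7.62, ratios of 1.88 and 1.02, but the saline controls ran from 5.75 to 7.11 and the DPN control was the lowest of them. Against the mean of the 4 saline controls DPN was 1.00 higher at 14 days, and neither difference passed, with adjusted p of 0.25 for AAT at 20 h (SE 0.62) and of 0.59 for DPN at 14 days (SE 0.49).

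E2f1, an E2F factor that turns on S phase genes, was the gene that differed most by class at 14 days. Its log2 signal was 6.33 in the ENU control, 6.18 in the DMN control, 6.54 in the DPN control, 6.25 in saline and 6.29 in olive oil. The genotoxic arrays had 5.02 in ENU, DPN and DBP, which is the floor, 5.20 in DMN, 5.21 in AAT and 5.43 in DMBA. EtOH had 5.54 and PB 6.10. All 6 genotoxic arrays thus lay below all 5 controls on this probe set, and the non-genotoxic ones between. The other E2f1 probe set was above the floor in 1 of the 52 arrays, so it gave no second reading of this difference.

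The class difference of E2f1 at 14 days was -1.20 (SE 0.15, unadjusted p = 5.04e-05), with an adjusted p of 0.37 in the fit within control sets. Without the control set term it was -1.16 and passed (adjusted p = 0.00718). That was 1 of 16 other settings tried, over which the difference ran from -1.69 to -0.63. In the remaining 15 it stayed below 0 and did not pass. The E2f1 controls of the other times were lower than those of 14 days: 5.02 to 5.63 at 4 h, 5.02 to 5.75 at 20 h, and 5.02 at 28 days in all but saline, which had 6.39. Saline controls of 14 days exceeded those of 4 h by 1.12 (SE 0.26, adjusted p = 0.065). Array medians of the 14 day controls ran from 40.5 to 205, and their part in the difference was not tested. The genotoxic effect on E2f1 late, at 14 and 28 days, minus that early, at 4 and 20 h, was -0.61 (SE 0.22, adjusted p = 0.53).

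**Figure D4:**
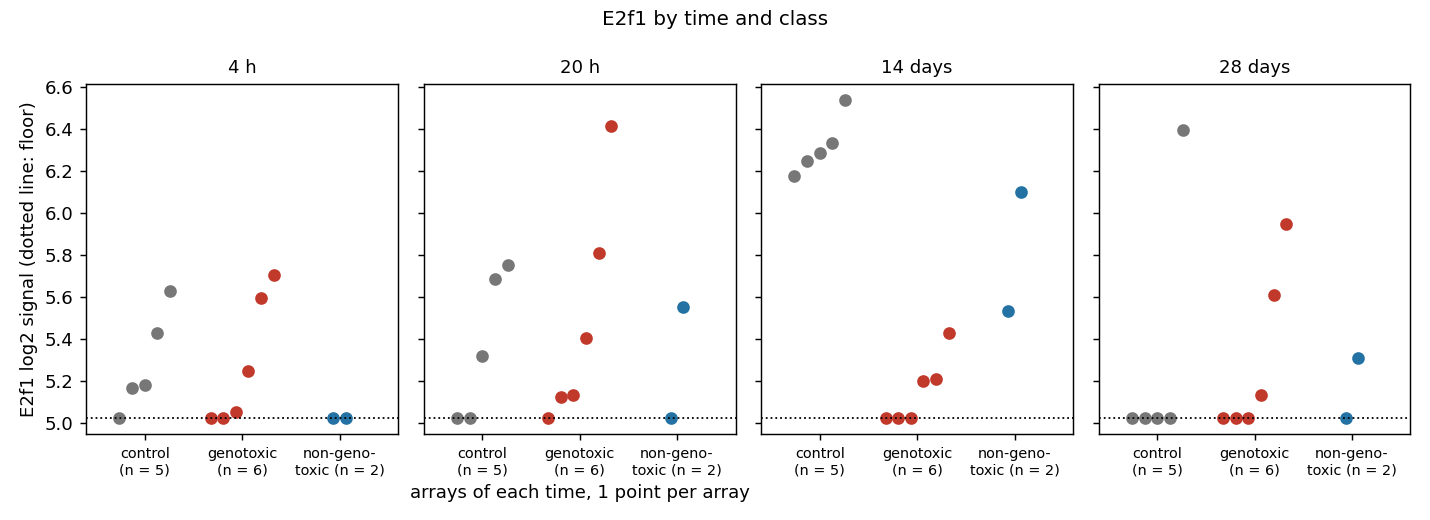
Points are E2f1 log2 signals of single arrays on its brightest probe set, at each time in 5 controls, 6 genotoxic and 2 non-genotoxic arrays. The dotted line is the floor at 5.02. At 14 days the controls sit between 6.18 and 6.54 and the genotoxic arrays between 5.02 and 5.43, while at the other times the classes overlap.

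Ccnd1, cyclin D1, which starts the passage through G1, was well above the floor throughout on its brightest probe set. On its dimmest it was at the floor in 6 of the 52 arrays, among them the array labelled saline at 4 h. It was lower in ENU than in the ENU control at 4 h on all 3 probe sets, by 0.57, 1.15 and 0.39, but against the saline mean the 3 gave -0.65, -1.13 and 0.15 (adjusted p = 0.33, 0.39 and 1), so the dimmest turned direction with the reference. Ccne1, cyclin E1, ranged from a ratio of -1.46 in ENU at 28 days to 1.08 in DBP at 20 h, but the 28 day saline controls alone ran from 5.02 to 6.49.

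Among mitotic cyclins and kinases, Cdk1 gave a call at 4 h. Cdk1 is the kinase that drives entry into mitosis. At 4 h it was at the floor in all 5 controls, in EtOH and PB, and in DMN, AAT, DMBA and DBP, while DPN had 6.53 and ENU 5.38. DPN was at least 2.84-fold higher (SE of the log2 difference 0.26, limma adjusted p = 0.00695), and of all probe sets 1.23% passed in DPN at 4 h. The error of Cdk1 rests on 1 array, since the ENU control of 14 days, at 6.00, was the only control above the floor at any time. Without the DMN or the DPN controls as saline replicates the adjusted p was 0.055 and 0.060, with no floor 0.060, with the own control as reference 0.063, and without scaling 1. At 20 h Cdk1 was at the floor in all 13 arrays.

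Other genes that rise with mitosis did not accompany Cdk1 in DPN at 4 h. Top2a, which untangles DNA, and Mki67, the Ki-67 antigen, were at the floor there, Cdc20 had a ratio of -0.15, Plk1 of -0.20, Aurkb of -0.02 and Hmmr of -0.62. Ccna2, cyclin A2, had 0.70 on its brighter probe set and -0.56 on the other. Mcm3 had a call on its dimmest probe set, 0.69 (SE 0.07, adjusted p = 7.07e-05), where DPN was the only array of 4 h above the floor, and its other 3 probe sets had ratios of 0.15, 0.72 and 0.51.

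Over the 32 comparisons of single chemicals with the controls of their time, 4 of 928 tests passed, and the background was 0.86%. At an unadjusted p under 0.05, 49 of the 928, or 5.28%, passed, against 6.02% of all. Besides Cdk1 in DPN these were Hmmr, Aurkb and Mcm2 in EtOH at 20 h, an array in which 17.2% of all probe sets passed. There Hmmr, which binds spindle microtubules, had 7.28 against 5.04 to 6.25 in the saline controls, a difference of 1.67 (SE 0.38, adjusted p = 0.00709). Aurkb, the kinase of the chromosomal passenger complex, had 6.13 against 5.02 to 5.55, and Mcm2 had 6.41 against 5.02 to 5.79, with differences of 0.82 and 1.02 and adjusted p of 0.037 and 0.036. The other Mcm2 probe set had a ratio of -0.48 to the saline control, and the other 3 Hmmr probe sets had ratios of 0.76, 0 and 0.31. The other Aurkb probe set was at the floor in all 52 arrays. The 3′ to 5′ ratios of this array are given above, and their part in the calls was not tested. The background of 0.86% includes this array, so the background of the other 31 comparisons was lower than that. Without it, 1 call was left in the other 31 comparisons, and when every kept probe set was counted in place of the brightest there were 10 calls in all and 6 without it.

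Dimmer probe sets supplied the calls that this adds outside EtOH. Besides the Rrm2 and Mcm3 calls above they were an Hmmr probe set in ENU at 4 h (0.35, adjusted p = 0.00169) and a Kif11 probe set in ENU at 14 days (0.48, adjusted p = 0.016), in which the treated arrays had 5.37 and 5.52. The brightest Kif11 probe set went the other way in ENU at 14 days, with a ratio of -0.65. Kif11 encodes the motor that pushes spindle poles apart.

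Foxm1, a factor that turns on mitotic genes, had the largest ratio of all 928, 2.82 in EtOH at 20 h, with 2.11 in PB. The array labelled saline at 20 h was at the floor while the other 3 saline controls had 6.61 to 7.24, so both ratios were large beside that control. EtOH, at 7.84, also lay above the other 3, and PB, at 7.13, among them. Whether the saline and PB labels of 20 h are exchanged, a doubt the Cyp2b10 values raise, was not tested. Against the array labelled PB, EtOH differed by 0.71 and the array labelled saline by -2.11, so the size of the EtOH ratio and the direction of the PB ratio rest on these labels. On the second Foxm1 probe set EtOH, PB and the saline array were all at the floor at 20 h, and the olive oil control was 1.79 above AAT, DMBA and DBP, which were at the floor, whereas the brighter probe set had ratios of 0.60, 1.04 and 1.01 for these 3. The 2 kept Foxm1 probe sets therefore gave opposite directions for AAT, DMBA and DBP at 20 h. The other Foxm1 probe sets were at the floor in all 52 arrays.

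At 14 days more of the 29 genes had a genotoxic class difference below 0 than above, and none passed. The counts were 21 below and 8 above, with a median of -0.12 against 0.05 over all kept named genes. Kif11 was 0.56 lower (SE 0.16, adjusted p = 0.37), Plk1, a kinase of mitotic entry, 0.43 lower (SE 0.13, adjusted p = 0.39), and Aurka, a kinase of the spindle poles, 0.30 lower (SE 0.12, adjusted p = 0.42). By chemical the medians were -0.25 in ENU, -0.09 in DMN, -0.22 in DPN, 0.14 in AAT, 0.08 in DMBA and -0.09 in DBP, and PB had -0.13. In ENU the lowest ratio was that of Hmmr, -1.64, where its other 3 probe sets had -0.58, -0.01 and 0, and the highest that of Tk1. In DPN E2f1 had -1.52 and Prc1, which bundles the midzone of the spindle, -1.43, with -0.20 on its other probe set. AAT ran from -1.07 for E2f1 to 0.89 for Cdk1, where AAT had 5.91 and the olive oil control was at the floor.

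Between pairs of saline controls of 14 days the median over the same genes reached 0.255, about the size of those of ENU and DPN. Over the 4 times, the median of a saline control against the other 3 had an SD of 0.0754 (n = 16). When the values were used as deposited, without scaling, the medians of ENU, DPN and AAT changed sign to 0.41, 0.15 and -0.28. With every kept probe set in place of the brightest they were -0.01, -0.01 and 0.

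At 28 days the DMBA array had the largest median of all 32, 0.37, with 19 genes above 0, 7 below and 3 at 0, where the median over all genes was 0. Ccnd1 had a log2 signal of 8.68 in DMBA, against 7.61 in the olive oil control, 7.29 to 7.78 in the saline controls and at most 8.21 in the other treated arrays. Cdk1 had 6.01 and Mki67 5.69, and both were at the floor in the 12 other arrays of 28 days. Top2a had 6.02, where saline, at 5.30, and DMN, at 5.29, were the only others above the floor.

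Of the other genes in DMBA at 28 days, most had ratios above 0. Tacc3, which stabilises spindle microtubules, had 0.81, Nusap1, a spindle protein, 0.56, Rrm1 0.47, Mcm7 0.47, Ccna2 0.47, Mcm2 0.44, Gmnn 0.40, Prc1 0.39, Aurka 0.38, Pcna 0.37 and Cdc20, the activator of mitotic exit, 0.35. Rrm2 had 0.54, 1.26 and 0.95 on its 3 probe sets, and Ccnd1 1.07, 0.87 and 0.50. On the second Cdc20 probe set the ratio was 1.01. The genes below 0 were Aurkb (-0.47), Mcm4 (-0.40), Mcm5 (-0.30), Kif11, Hmmr, Plk1 and Foxm1. On the brightest probe sets, other chemicals at 28 days had ratios as high or higher for several genes above 0. Tacc3 had 1.00 in AAT, Nusap1 0.61 and Rrm2 0.54 in DPN, Aurka 0.64 in ENU and Prc1 0.43 in DMN. PB had 0.69 for Rrm1 and 0.49 for Pcna, and EtOH 0.61 for Mcm7 and 1.16 for Mcm2. For Ccna2, Gmnn and Cdc20 the DMBA ratio was the highest of all chemicals.

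None of the 29 genes passed the test in DMBA at 28 days. Ccnd1 was 1.07 above the olive oil control (SE 0.29) and the dimmest Rrm2 probe set 0.95 (SE 0.25), each with an adjusted p of 0.46, and 3 of the 29 had an unadjusted p under 0.05, beside 2.76% of all probe sets. The comparison set 1 array against 1 array, and AAT and DBP, measured against the same olive oil array, had medians of 0 and 0.01. The median over all 52 kept probe sets was 0.19, and without scaling that over the 29 genes was 0.26.

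Lists of markers of other cells had medians on both sides of 0 in DMBA at 28 days, in 1 array against 1 olive oil array. Of 10 Kupffer cell markers 9 had a ratio above 0, with a median of 0.31, and the summed log2 level of that list ran from 11.36 to 11.77 in the controls of 28 days and from 11.54 to 11.92 in the genotoxic arrays. The neutrophil and myeloid progenitor list had 5 of 7 above 0 and a median of 0.17. Prtn3, a protease of myeloid progenitors, had a difference of 1.85 between 1 DMBA array and 1 olive oil array. It was above the floor in 6 of the 52 arrays, and differed by -2.03 in AAT and -0.70 in DBP at 20 h. The endothelial list had 5 of 7 above 0 and a median of 0.21. Of 7 stellate cell markers 4 were above 0, 2 of them by 2-fold or more, with a median of 0.02, and of 7 T and B lymphocyte markers 6 were below 0, with a median of -0.07. Hepatocyte, erythroid and cholangiocyte lists had medians of 0.02, -0.04 and 0. The part of other cells in the DMBA values was not tested.

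**Figure D5:**
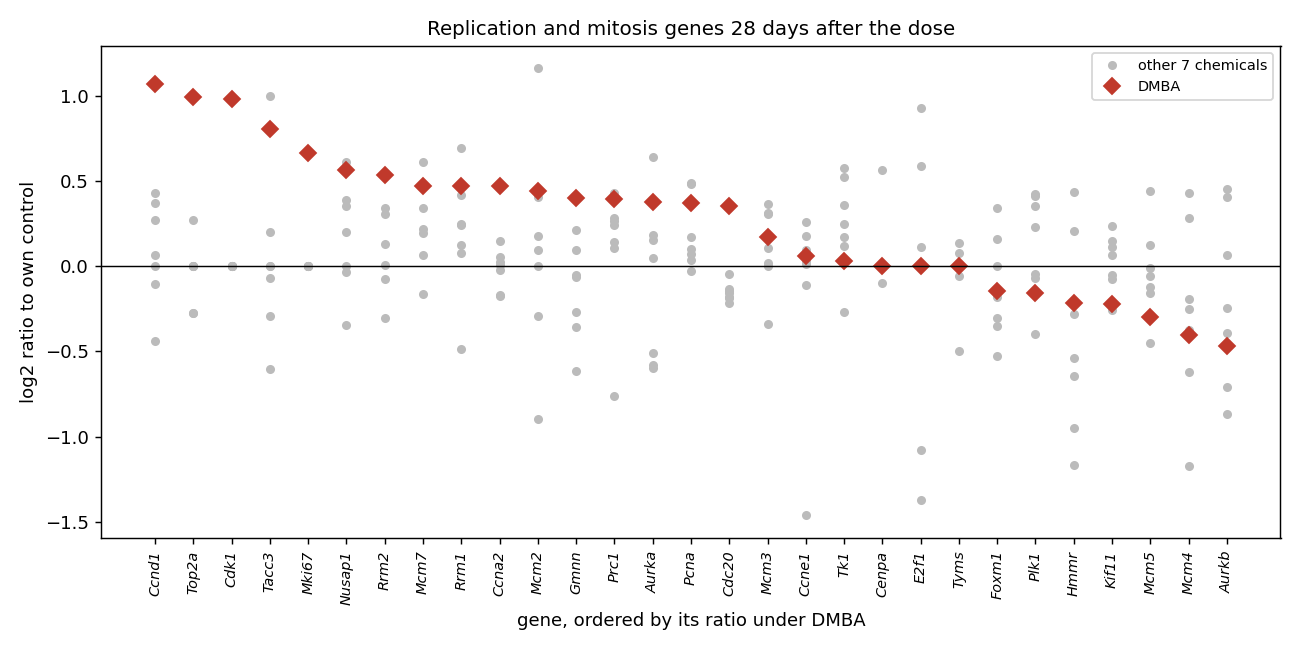
Diamonds are log2 ratios to own control of 29 genes in DMBA 28 days after the dose, ordered by size, and grey points are those of the other 7 chemicals at 28 days. DMBA has the highest of the 8 ratios for Ccnd1 (1.07), Top2a (0.99), Cdk1 (0.98) and Mki67 (0.67).

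Other chemicals at 28 days gave isolated values. For the class, Hmmr was 0.63 lower (SE 0.20, adjusted p = 0.76) and Nusap1 0.38 higher (SE 0.12, adjusted p = 0.76). Mcm2 had a ratio of 1.16 in EtOH, where it had 6.50 against 5.34 in saline, and 0.20 on its other probe set. E2f1 had -1.08 in EtOH and -1.37 in PB, both set by the saline control that stood alone above the floor. In the fit of the non-genotoxic class at 28 days 2 dimmer Mcm3 probe sets passed, at -0.68 and -0.18, and each rests on 1 saline control that both chemicals share.

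Vehicle controls were compared over time, since the liver itself may change. None of the 29 genes passed in the saline controls of 20 h, 14 days or 28 days against 4 h by limma, with 1, 8 and 3 of the 29 at an unadjusted p under 0.05, beside 5.28%, 19.6% and 5.60% of all probe sets, and at 14 days 0.752% of all probe sets passed. Aurkb was 0.73 higher at 14 days than at 4 h (SE 0.16, adjusted p = 0.053), and Tk1 1.00 lower (SE 0.31, adjusted p = 0.13). Ccnd1 was 0.70 lower at 28 days (SE 0.14, adjusted p = 0.23), from 8.16 to 8.44 at 4 h to 7.29 to 7.78 at 28 days, with no overlap. Leaving out the saline array of the EtOH and PB set at each time gave 2 calls in place of 0.

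Wider lists of the same pathway were also tested. Of 41 other replication genes 36 were kept, and in 1152 tests of single chemicals 10 passed up and none down, 6 of them outside EtOH at 20 h. Of 44 other mitosis genes 35 were kept, and in 1120 tests 11 passed up and 2 down, 4 and 0 of them outside that array. Over all probe sets 0.86% of such tests passed with EtOH at 20 h included, and the share outside that array was lower. Shares at an unadjusted p under 0.05 were 4.08% and 5.71%, beside 6.02% of all.

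A few of these genes stood out by name. Of those below, Dck also differed by 1.85 and Ckap2 by -0.94 in EtOH at 20 h, the array with high 3′ to 5′ ratios. Fen1, the flap nuclease of Okazaki fragments, had a log2 signal of 8.54 in DMN at 14 days against 6.33 in the DMN control and 6.00 to 6.70 in the saline controls, a difference of 2.14 (SE 0.23, adjusted p = 0.000381). Dck, deoxycytidine kinase, which salvages nucleosides, rose at 20 h in ENU to 6.22 and in DMN to 6.00 from a floor in their own controls, by 1.17 and 0.95 (adjusted p = 0.000147 and 0.000941), and it was above the floor in 9 arrays. Ckap2, a spindle protein, had 7.84 in DPN at 20 h against 5.92 to 6.72 in the saline controls (difference 1.44, SE 0.24, adjusted p = 0.00762).

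Among inhibitors of the cycle 1 gene had most of the calls. Cdkn1a, the p21 inhibitor and a target of p53, was called in ENU, DMN and DPN at 4 h, by 3.20, 3.34 and 4.28, in DMN, DPN and AAT at 20 h, by 5.12, 5.14 and 4.09, and in DPN at 14 days, by 3.64, besides EtOH at 20 h. At 4 h its log2 signal was 10.72 in DPN, 9.77 in DMN and 9.64 in ENU, against 5.70 to 7.75 in the saline controls. Thus in DPN at 4 h Cdkn1a, Cdk1 and an Rrm2 probe set all passed, in DMN Cdkn1a alone of these, and the difference between chemicals was not tested. Of the 10 inhibitors and pocket proteins the only other calls outside EtOH at 20 h were Cdkn1c, p57, lower by 1.24 in AAT at 20 h, and Cdkn2b, p15, higher by 0.39 in ENU at 14 days.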

How the data were processed

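Liver RNA of 52 pools of 5 mice was hybridised to Affymetrix mouse arrays. The authors deposited 1 intensity per probe set and array. For the software, background correction and scaling, nothing is stated in the sources used here. The deposited table held 22690 probe sets with no missing value, of which 64 control probe sets were left out, and every array column was used (0 were not). Of the 22626 others, 20380 had 1 gene symbol in the array annotation, 691 several and 1555 none. Arrays were scaled to 1 median, values below the 30th percentile were set to it, and 18349 probe sets above this floor in at least 4 arrays were kept.

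Tests used limma 3.58.1 (R 4.3.3, lmFit and eBayes with a variance trend) with Benjamini-Hochberg adjustment over all kept probe sets at 0.05. The class fits of each time held 13 arrays with the control set as a block and had 6 residual degrees of freedom. Single chemicals were set against the mean of the 4 saline controls of their time, or the 1 olive oil control, in a fit of 52 arrays with 12 residual degrees of freedom, where a lone array is assumed to vary like the saline controls. The late against early fit had 24. Saline replicates 1 to 4 are the ENU, DMN and DPN controls and the control of EtOH and PB. Labels name them by chemical and not as replicates of a culture or animal. The fits were tested on simulated data.

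The genes and lists were chosen with earlier results of these data known. Any of the 39 genes may be named; those called, those with the 5 largest mean ratios of a class and time, and the extremes of the 4 chemical and time pairs with the largest medians were described first, and of the wider lists called genes. Alternatives were other scalings, floors, filters, probe set rules, eBayes without trend, fits without the block and fits leaving out chemicals or controls. Motifs were searched with Python 3.11.15.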

Additional observations from a re-analysis of the deposited data

Results flagged for a closer look

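Among the saline controls, 69 groups of 4 values of 1 gene and time, all above the floor, were checked for a value far from the other 3. Chance marks about 1 in 20 such groups, and 5 of the 69 were marked. Mcm5 had a log2 signal of 5.03 in the ENU control of 14 days, below the other 3. Rrm1 had 7.29 and Rrm2 6.45 in the array labelled saline at 20 h, above and below the others. Cdc20 had 6.95 in the DPN control of 28 days, above the others, and Hmmr 5.59 in the saline array of 28 days, below them.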

How the results depend on the processing

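No called result changed direction. The counts for the genotoxic class at 4 h, 20 h and 28 days and for late against early stayed at 0 in every setting tried, while at 14 days 1 gene, E2f1, passed without the control set block. Single-chemical calls among the 29 genes were 4 in all and 1 outside EtOH at 20 h. They were 0 and 0 with values as deposited, 10 and 8 with the floor at the 20th percentile, 11 and 8 at the 40th, 14 and 11 with no filter, 2 and 0 with at least 26 arrays above the floor, 2 and 0 with no floor and log2 of the scaled value plus 16, and 2 and 0 against the own control. With every kept probe set they were 10 and 6. Outside EtOH at 20 h there were 3 with the mean of a gene's probe sets and 2 without the doubted saline array of 20 h. Leaving out 1 saline replicate gave 1 to 11 and 0 to 7. Both low counts, 1 and 0, came without the DMN or the DPN controls, and both high counts without those of the EtOH and PB set. Saline calls over time went from 0 to 1 with the 40th percentile, with 26 arrays or with the control set as a block, and were 0 to 2 leaving out a replicate. The causes were not tested.

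The medians of DMBA at 28 days and of ENU, DPN and AAT at 14 days, 0.37, -0.25, -0.22 and 0.14, became 0.26, 0.41, 0.15 and -0.28 as deposited, 0.21, -0.10, -0.082 and 0 with the 40th percentile, 0.045, -0.0035, 0 and 0 with no filter, 0.25, -0.098, -0.019 and -0.0046 with the mean of probe sets, and 0.19, -0.0082, -0.006 and 0 with every kept probe set. For AAT the 20th percentile gave -0.086 and the filter of 26 arrays -0.17. The alternatives of every kept probe set, of leaving out EtOH at 20 h and of leaving out the doubted saline array were chosen after seeing the data. The labels give no replicate numbers, and pairing by control set is the block of the class fits and the own control reference above. Signal over background limits these genes, since about as many values lay at the floor as above it.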
